A study of Mus musculus with 4 samples.

Results

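The genes described here encode heterogeneous nuclear ribonucleoproteins (hnRNPs, symbols Hnrnp) and serine/arginine-rich splicing factors (SR proteins, symbols Srsf), and the values are the XBP1s peaks listed at their start sites. A peak was counted when the authors' annotation placed its centre within 5000 bp of the transcription start site (TSS) of a protein-coding Hnrnp or Srsf gene. The wide peak that the annotation names Gm6793 was counted for Hnrnpa3, over whose start it lies. This gave 33 peaks (intervals in the plots) of the 4890 in the series, 25 at hnRNP genes and 8 at SR genes. They belong to 24 of the 32 protein-coding genes with these symbols in RefSeq.

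Binding of XBP1s was mapped in natural killer (NK) cells from mouse spleen by ChIP-seq, the sequencing of DNA pulled down with a factor by an antibody. XBP1s is the transcription factor made from spliced Xbp1 mRNA during stress of the endoplasmic reticulum (ER). The mice are given as C57BL/6, and as Il15TgXbp1f/f in the design text, an Il15 transgene with floxed Xbp1 for which no Cre is named. All 4 libraries come from cells held for 1 h in IL-15 at 50 ng/ml: 2 XBP1s immunoprecipitations and 2 inputs. No group without IL-15 and none without XBP1 was analysed here. The file is 1 combined list with no value for any library, so no peak has a replicate error, the depth is unknown, immunoprecipitation and input could not be compared, and every count below is a description with no test. Of 10 NK cell marker genes 5 had a peak (Klrd1, Prf1, Gzmb, Nkg7 and Il2rb) and Ncr1, Klrb1c, Klrk1, Eomes and Tbx21 did not. None of 4 B cell markers, 1 of 4 T cell markers (Cd3d) and 1 of 4 myeloid markers (Cd68) had a peak. A peak is not a measure of expression, and expression was not measured.

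Both families bind pre-mRNA and steer which exons are joined. SR proteins carry RNA recognition motifs and a domain rich in arginine and serine, bind exonic enhancers and help recruit the splicing machinery, while many hnRNPs bind silencers and oppose exon inclusion. Members of both families also act in mRNA export, stability and translation, and several control their own level through exons that send the transcript to decay. In lymphocytes hnRNP L and hnRNP LL are known for setting the splicing of Ptprc, a receptor phosphatase gene. XBP1 mRNA itself is processed in another way, by the endonuclease IRE1 at the ER membrane and not by the spliceosome.

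The DNA under the widest peaks is shown first, because the factor is known to read short elements in promoters. The 250 bases before a RefSeq start (build GRCm38.p6, the assembly of mm10) are given 5' to 3' on the gene's strand for the 3 hnRNP and the 3 SR genes with the widest peaks, at the covered start nearest to the peak centre. Capitals mark ACGT, the core of XBP1 sites, and CCACG and CCAAT, the parts of the ER stress element, each on either strand (CGTGG and ATTGG on the other). Overlapping matches are joined.

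Hnrnpa3 (chr2:75659009-75659258, plus strand): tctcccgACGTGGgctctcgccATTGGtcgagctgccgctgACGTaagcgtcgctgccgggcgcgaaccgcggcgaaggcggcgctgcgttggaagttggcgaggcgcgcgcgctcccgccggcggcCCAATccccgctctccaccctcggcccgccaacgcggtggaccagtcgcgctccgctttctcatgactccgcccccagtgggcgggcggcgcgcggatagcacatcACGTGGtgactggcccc

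Hnrnpf (chr6:117906532-117906781, plus strand): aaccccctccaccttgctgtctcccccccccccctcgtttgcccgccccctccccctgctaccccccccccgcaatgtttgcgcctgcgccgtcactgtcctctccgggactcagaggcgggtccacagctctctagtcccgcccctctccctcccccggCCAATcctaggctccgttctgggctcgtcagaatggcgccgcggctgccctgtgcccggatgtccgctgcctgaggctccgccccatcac

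Hnrnph1 (chr11:50377547-50377796, plus strand): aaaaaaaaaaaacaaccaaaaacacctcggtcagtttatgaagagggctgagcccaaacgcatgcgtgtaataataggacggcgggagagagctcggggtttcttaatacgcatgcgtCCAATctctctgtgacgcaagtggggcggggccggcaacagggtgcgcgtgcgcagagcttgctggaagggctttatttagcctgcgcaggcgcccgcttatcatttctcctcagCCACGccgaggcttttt

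Srsf2 (chr11:116853095-116853344, minus strand): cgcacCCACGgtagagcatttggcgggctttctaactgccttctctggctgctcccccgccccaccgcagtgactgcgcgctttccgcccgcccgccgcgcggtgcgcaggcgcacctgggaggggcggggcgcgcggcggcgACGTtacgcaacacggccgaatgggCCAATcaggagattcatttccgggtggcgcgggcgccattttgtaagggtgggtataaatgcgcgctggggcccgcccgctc

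Srsf5 (chr12:80945249-80945498, plus strand): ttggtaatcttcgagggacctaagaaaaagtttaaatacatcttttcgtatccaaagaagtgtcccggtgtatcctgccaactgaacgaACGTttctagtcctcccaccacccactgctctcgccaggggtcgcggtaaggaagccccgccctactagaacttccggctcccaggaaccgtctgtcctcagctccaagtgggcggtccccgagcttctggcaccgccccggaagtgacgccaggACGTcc

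Srsf7 (chr17:80207306-80207555, minus strand): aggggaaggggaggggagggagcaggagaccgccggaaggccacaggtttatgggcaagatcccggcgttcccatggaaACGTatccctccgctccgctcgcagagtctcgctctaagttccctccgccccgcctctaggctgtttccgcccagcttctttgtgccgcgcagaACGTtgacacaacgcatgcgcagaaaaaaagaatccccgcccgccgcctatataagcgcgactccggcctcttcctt

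The first 5 of these stretches lay wholly inside the widest peak of their gene. That of Srsf7 shared only 5 bases with its peak, which begins just before the start site and runs into the gene. GC content was 73.2% for Hnrnpa3, 70.8% for Hnrnpf, 69.6% for Srsf2, 61.6% for Srsf7, 56.8% for Srsf5 and 54.0% for Hnrnph1. The Hnrnpa3 stretch holds a complete ER stress element, CCAAT and CCACG spaced by 9 bases, on the strand opposite to the gene. It lies at chr2:75659017-75659035, bases -242 to -224 from the start. The same stretch holds ACGTGG overlapping this element and again at bases -17 to -12, there overlapping the E-box CACGTG.

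Peaks at hnRNP and SR genes were common. Of the 32 genes 24 had a peak (75%, exact 95% binomial interval 56.6 to 88.5), against 3483 of 21900 protein-coding genes (15.9%). The hnRNP share was 17 of 21 (81.0%, 58.1 to 94.6) and the SR share 7 of 11 (63.6%, 30.8 to 89.1). These intervals overlap, and they cover counting error only. The 24 genes lie on 14 chromosomes.

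Median promoter CpG content was higher at genes with a peak. The 23 family genes with a peak and a sequence in the promoter table had a median of 33 CpG in the 300 bases from 250 before to 50 after the start (the highest value where a gene has several starts), and the 7 without a peak had 26. Their interquartile ranges overlap, at 26.5 to 41.5 with a peak and 15 to 35 without. With 7 genes, among them Hnrnpa1, whose start lies between peaks under other names, the 2 groups cannot be compared closely. Over protein-coding genes the median was 24 among 2899 with a peak and 15 among all 17492 with a promoter sequence. Among the 2441 genes with at least 32 CpG, the median of the whole family, 708 had a peak (29.0%), and 13 of the 16 family genes in that range did (81.2%). The part of CpG content in the family's count was not tested beyond these values.

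**Figure D1:**
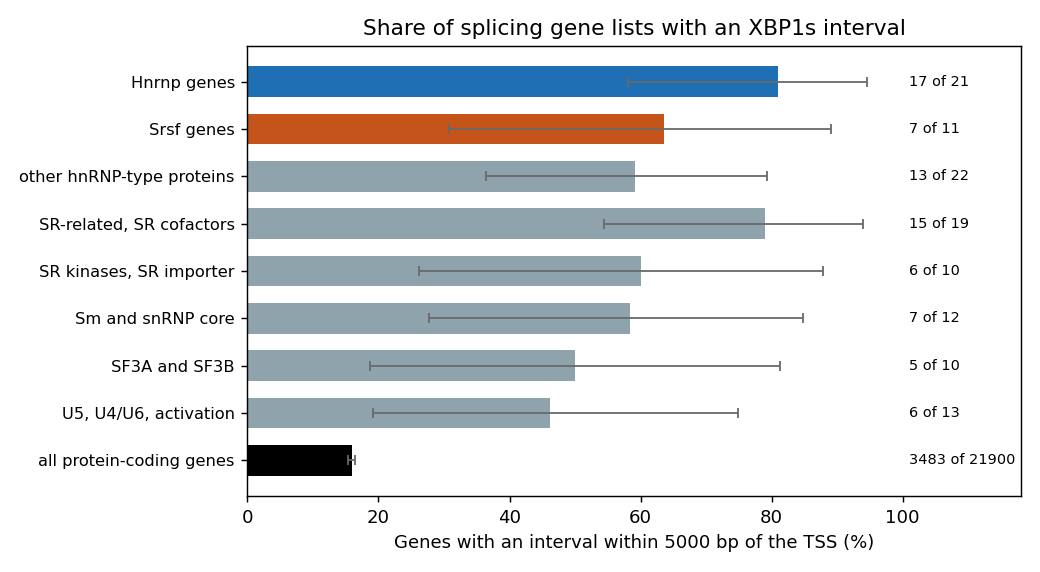
Share of genes (%, horizontal axis) with an XBP1s peak within 5000 bp of the TSS for Hnrnp genes, Srsf genes, 6 other splicing lists and all protein-coding genes; grey bars are exact 95% binomial intervals and the counts stand at the right. Hnrnp genes are at 17 of 21 and Srsf genes at 7 of 11, above the 15.9% of all protein-coding genes.

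The peaks were also wide. Width, end minus start plus 1, is the only size that the list gives, since the score that the authors deposited is 0 throughout. It is not a measure of signal. Taking each gene's widest peak, the median was 770.5 bp for the 24 family genes (221 to 2508), 734 bp for the 17 hnRNP genes and 797 bp for the 7 SR genes, against 409.5 bp for the other 3462 genes with a peak. With the Gm6793 peak left out, the family median was 748.5 bp. Counting all peaks, the median was 640 bp for the 33, against 395 bp for the 3806 within 5000 bp of a protein-coding TSS. It was 505 bp for hnRNP and 787.5 bp for SR peaks. Of the 33 peaks 7 were at least 1000 bp wide (21.2%), compared with 286 of the 3806 (7.51%). The SR peaks started higher, at 418 bp, whereas hnRNP peaks reached down to 100 bp, and their lower quartiles were 700.75 bp for SR and 256 bp for hnRNP, beside 268 bp for all 3806.

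**Figure D2:**
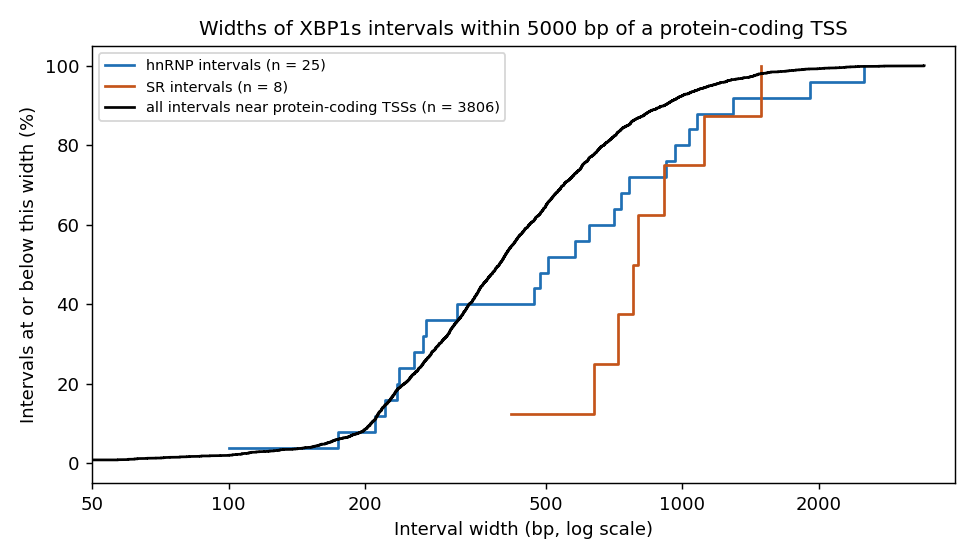
Cumulative share of peaks (%, vertical axis) by width (bp, log scale) for 25 hnRNP peaks, 8 SR peaks and all 3806 peaks within 5000 bp of a protein-coding TSS. The lower part of the hnRNP curve runs beside that of all peaks and its upper part lies to the right, with a highest width of 2508 bp; the SR curve begins at 418 bp.

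Among the hnRNP A and B type proteins, abundant binders of nascent RNA with paired RNA recognition motifs and a glycine-rich tail, Hnrnpa3 had the widest peak of the family. It is 2508 bp wide (chr2:75658347-75660854), wider than 99.8% of the 3806 peaks, and runs from -912 to 1595 bp relative to the RefSeq start of Hnrnpa3. A further peak of 256 bp is centred at -1512 bp. Hnrnpa2b1, whose product is known for RNA transport, had 1 peak of 919 bp in intron 1 (chr6:51468686-51469604), 241 bp past the nearer of its RefSeq starts. Hnrnpab had peaks of 472 bp over its start and 235 bp centred 690 bp downstream. Hnrnpa0 had narrow peaks of 237 and 174 bp, both upstream, with 82 bp between the nearer one and the start. The A and B group thus spans nearly the whole range of widths, with the start covered at Hnrnpa3 and Hnrnpab and bare at Hnrnpa2b1 and Hnrnpa0.

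Hnrnpa1, which encodes the best studied splicing silencer factor of the group, has no peak under its own name. Its RefSeq start (chromosome 15, position 103240397) lies in the 212 bp between a 549 bp peak assigned to its neighbour Cbx5 and a 606 bp peak (chr15:103240466-103241071) assigned to Gm5643, which begins 69 bp after the start. The authors' table describes Gm5643 as an hnRNP A1 pseudogene and Gm6793, the name on the Hnrnpa3 peak, as an hnRNP A3 pseudogene. RefSeq places Gm5643 on chromosome X and Gm6793 on chromosome 8, while both peaks lie at the genes that the pseudogenes resemble, on chromosomes 15 and 2. With the Gm5643 peak counted for Hnrnpa1, a choice made after the values were seen, 25 of 32 genes had a peak (78.1%).

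The hnRNP F and H proteins bind runs of G through RNA recognition motifs of an unusual type. Hnrnpf had 4 peaks, the most of any family gene, of 318, 1912, 505 and 268 bp along the gene. RefSeq gives it 4 starts over 16954 bp on chromosome 6. The 1912 bp peak (chr6:117906220-117908131), wider than 99.2% of the 3806, covers both middle starts, the 505 bp peak covers the last one, and the 318 bp peak begins 225 bp after the first. Hnrnph1 had a peak of 1294 bp (chr11:50377252-50378545) that covers 4 of its 5 RefSeq starts. Hnrnph3 had 1 of 221 bp that ends 126 bp before its start, the narrowest of any gene's widest peak in the family. Hnrnph2, on chromosome X, had none, and the nearest peak lay 59.3 kb away.

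Hnrnpk encodes a binder of C-rich RNA and DNA through KH domains. It had a peak of 1079 bp (chr13:58401463-58402541) over its start. Hnrnpc, whose product coats uridine tracts and keeps cryptic exons out of mRNA, had one of 1036 bp (chr14:52103607-52104642), also over the start. Hnrnpd encodes AUF1, which binds AU-rich elements and speeds the decay of cytokine mRNAs. Its peak of 763 bp lies almost wholly upstream and passes the start by 27 bp. Its relative Hnrnpdl had 579 bp over the start, from -242 to 336 bp. These 4 genes all had the start inside the peak.

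The U type proteins are large and tie RNA to chromatin and the nuclear matrix. Hnrnpul1 had a peak of 961 bp over its start. Hnrnpul2 had one of 706 bp, which begins 194 bp after the authors' TSS, and a further 184 bp peak 103 bp outside the gene is assigned to its neighbour Ttc9c. At Hnrnpu, which encodes the scaffold attachment factor that Xist RNA needs on the inactive X, the peak of 734 bp (chr1:178336140-178336873) begins 942 bp past the RefSeq start, in a region the authors' detailed annotation calls CpG. A further Hnrnpu peak of 308 bp is centred at -31370 bp and falls outside the 5000 bp window. The counted peak farthest from its TSS is at -2478 bp, at Hnrnpl, so no family peak lies near the limit.

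Hnrnpl, a binder of CA repeats, had 3 narrow to middling peaks, of 100, 623 and 210 bp, and none covers the start used by the authors. The 623 bp peak is annotated as intergenic, at -1739 bp, and lies inside the gene as RefSeq draws it, which extends 2344 bp further upstream. Hnrnpll, its lymphocyte-regulated relative, had no peak, with the nearest 133 kb away, although Srsf7, its neighbour 137811 bp along chromosome 17, had one. Hnrnpm, a binder of GU-rich RNA, had 272 bp beginning 64 bp after its start, and Hnrnpr, a relative of Syncrip, 485 bp over 1 of its 2 starts. Hnrnpa1l2-ps2, which RefSeq lists as protein-coding despite its name, had none within 3269 kb.

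Of the SR genes, Srsf2 had the widest peak. Srsf2 encodes SC35, the classic marker of nuclear speckles. Its peak is 1490 bp wide (chr11:116852410-116853899), wider than 98.0% of the 3806, and runs from -805 to 684 bp around the start. Srsf5 had 1117 bp (chr12:80945219-80946335) and Srsf7, which encodes an SR protein with a zinc knuckle that also acts in export and polyadenylation, 911 bp (chr17:80206400-80207310). Srsf1, the founding family member and an oncogene when in excess, had 721 bp (chr11:88047220-88047940) and Srsf6 640 bp, both annotated as 5' UTR. These 5 peaks cover the RefSeq start.

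Srsf3, the gene of the smallest SR protein, had 797 bp (chr17:29031806-29032602) that ends 58 bp before the start. Srsf11 had 2 peaks, of 418 and 778 bp, each over a different RefSeq start of the gene. The 4 SR genes without a peak were Srsf4, Srsf9, Srsf10 and Srsf12. Measured from any part of the gene, Srsf10, whose product represses splicing when dephosphorylated, had the nearest peak, at 3.72 kb. Srsf9 was 7.13 kb, Srsf12 14.1 kb and Srsf4 139 kb from one. Measured from the RefSeq start, Srsf9 was nearest, at 13797 bp, with Srsf10 at 17560 bp and Srsf12 at 38133 bp.

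**Figure D3:**
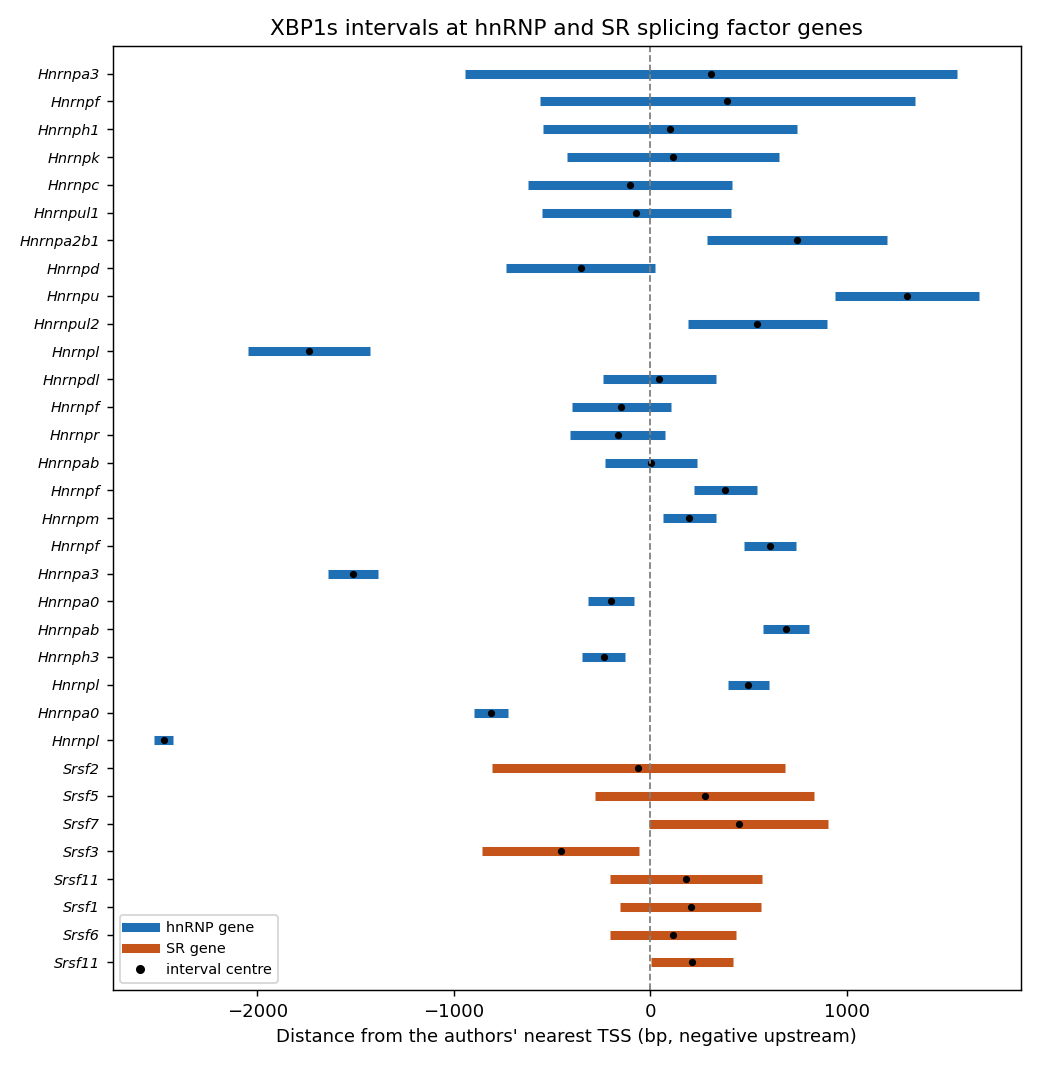
Extent of each of the 33 peaks (bar, bp) around the TSS from which the authors measured it (dashed line, negative upstream), with the centre as a black dot; 25 hnRNP peaks stand above 8 SR peaks, each sorted by width. SR peaks lie within 1000 bp of the TSS, whereas hnRNP peaks reach from -2527 bp (Hnrnpl) to 1676 bp (Hnrnpu).

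The centres of hnRNP peaks were spread around the start more widely than those of all peaks, and those of the 8 SR peaks less widely. The interquartile range was -200 to 393 bp for hnRNP and 71.25 to 228.5 bp for SR peaks. Measured from the authors' TSS, the median centre was 115 bp downstream over the 33 peaks (interquartile range -166 to 383), against 49 bp downstream over all 3806 (-96 to 176). The 95% interval of the family median, -103 to 278 bp, holds the value of all peaks. It takes the 33 peaks as independent, although 6 of the 24 genes have more than 1, and no difference was tested. Centres lay downstream in 60.6% of family peaks, against 60.0% of all. Of the 33 peaks 17 cover that TSS (51.5%), against 2387 of 3806 (62.7%). The others divide into 9 that begin after the TSS and 7 that end before it. By family, 6 of 8 SR peaks (75%) and 11 of 25 hnRNP peaks (44%) cover it. For Hnrnpa3 this TSS is the one the authors gave to Gm6793.

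Counted by RefSeq starts, 22 of 42 family starts lay inside a peak (52.4%), against 2465 of 21263 starts of protein-coding genes (11.6%). Starts under 1 peak are each counted here, 4 of them at Hnrnph1. These 42 belong to 30 genes, 16 of which had at least 1 start inside a peak, against 2228 of 17492 protein-coding genes. More than 1 peak was found at 6 of the 24 genes (Hnrnpf, Hnrnpl, Hnrnpa0, Hnrnpa3, Hnrnpab and Srsf11; 25%), against 284 of the 3486 genes that the authors' annotation names (8.15%). The authors' annotation classed 18 of the 33 peaks as promoter (54.5%) and 8 as intron. It classed 3 as intergenic (2 at Hnrnpl and 1 at Hnrnpa3), 2 as 5' UTR, 1 as exon and 1 as transcript end. Over all 3806 the promoter share was 64.2%, inside the 95% interval of the family share (36.4 to 71.9), which also takes the peaks as independent. The intron share was 17.3%, beside 24.2% for the family. The detailed annotation calls 7 family peaks CpG (21.2%), compared with 9.77% of all.

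Several family genes share their promoter region with a gene on the other strand. Of the 23 genes with a peak and a promoter sequence, 6 had such a start within 1000 bp upstream (26.1%), against 411 of 2899 protein-coding genes with a peak (14.2%). Among the 7 family genes without a peak 2 had one (28.6%), Hnrnpa1 (with Cbx5) and Hnrnph2 (with Gla), against 8.48% of all protein-coding genes. Hnrnpa1 counts as without a peak only because the peaks beside its start carry other names. With 7 genes, the shares with and without a peak cannot be compared closely. The Srsf2 peak also covers the start of Mfsd11, and the Hnrnpk peak that of Rmi1, so these peaks cannot be given to 1 gene of the pair. Hnrnpa2b1 and Cbx3, the heterochromatin protein gene opposite it, have a peak each, of 919 and 763 bp, and the region between, with the Hnrnpa2b1 start, has none. At Hnrnpdl a further 41 bp peak inside the gene is assigned to Enoph1. Other pairs were Srsf11 with Lrrc40, whose starts are 76 bp apart, and Hnrnph3 with Pbld2.

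Motifs were searched in the 300-base RefSeq promoters of the family, 42 windows of 30 genes, some of which overlap each other. ACGT (the core) was in 21 windows (50%), against 55.2% of the 3221 protein-coding promoters that overlap a peak and 33.0% of all 21263. CCACG (part of the ER stress element) was in 19 (45.2%), against 58.2% of those with a peak and 37.4% of all. In windows cut to 150 bases before the start it was in 28.6% of the family, against 29.3% of all, so the order of the shares turned. Of the 26 family windows that overlap a peak, which are the like of the 3221, 15 held CCACG (57.7%), 13 ACGT (50%) and 15 CCAAT (57.7%). The longer core ACGTGG, which contains both the core and CCACG read on the other strand, was in 3 (7.14%), in Hnrnpa3, Hnrnpf and Hnrnpd, against 581 of the 3221 with a peak and 9.06% of all. It was in 3 of the 26 (11.5%). These promoters hold 4 matches, 2 of them in Hnrnpa3. An E-box, CACGTG, overlaps 1 match in each promoter, and the match at the ER stress element of Hnrnpa3 has none. Hnrnpd has its match at bases -33 to -28 and Hnrnpf at bases -78 to -73 from the later of the pair of starts under its widest peak, and all 4 matches lie inside a peak.

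TGACGTGG, of the UPRE type (unfolded protein response element) that XBP1 is known to bind, was in none of the 42, against 1.96% of the promoters with a peak and 0.705% of all. The complete ER stress element was in Hnrnpa3 alone, against 13 of the 3221 promoters with a peak (0.404%) and 30 of all 21263 (0.141%). TGACGTCA, the cyclic AMP response element, and AAGATGGCG, the YY1 motif, were in none, against 5.93% and 4.87% of the promoters with a peak. CCAAT, the NF-Y motif, was in 22 (52.4%), against 40.6% of those with a peak and 38.2% of all, and GGGCGG, the GC box, in 34 (81.0%), against 69.9% and 46.2%. CCGGAAG, an ETS motif, was in 10 (23.8%), against 30.7% and 11.6%, and with 150 bases before the start in 14.3% of the family. CACGTG was in 5 (11.9%), against 14.0% and 7.84%, and GCATGCGC, the NRF1 motif, in 3 (7.14%), against 7.39% and 3.52%. Within the 26 family windows that overlap a peak, the GC box was in 23 (88.5%), the ETS motif in 7 (26.9%), and the E-box and the NRF1 motif in 3 each (11.5%). TGACGTGG, TGACGTCA and AAGATGGCG were in none of the 26. With so few windows a count of 0 is near the low shares of these motifs among promoters with a peak. CTCGCGAG, a palindrome, was in 4 of the 42 (9.52%), against 3.38% and 1.24%, but in none of the 26. All motifs were read on both strands, and TGACGTGG holds ACGTGG, which holds ACGT. A match shows letters in the window and not a bound site.

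**Figure D4:**
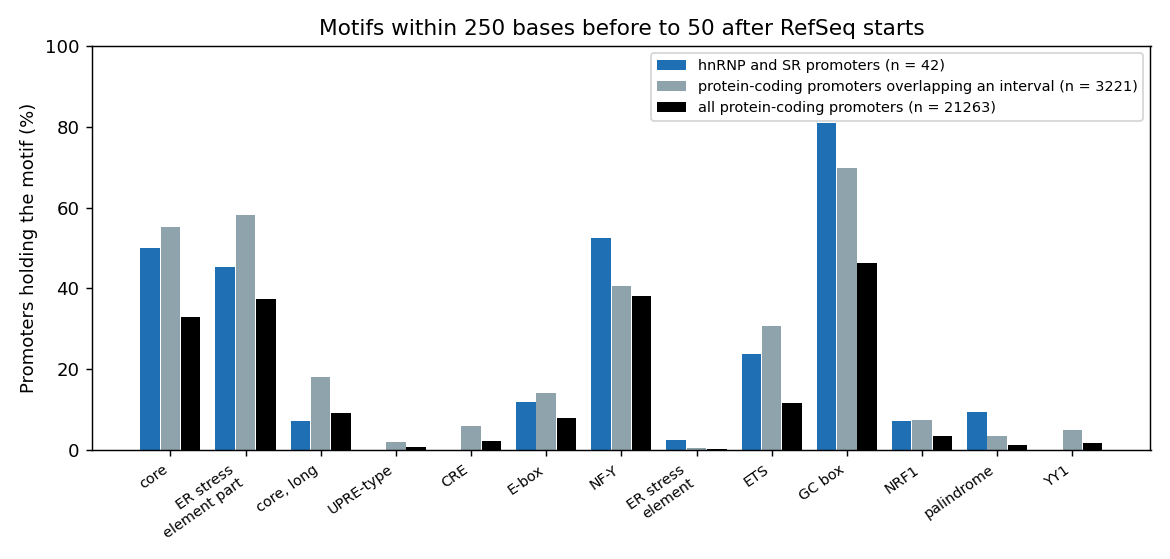
Share of promoters (%, vertical axis) that hold each of 13 motifs in hnRNP and SR promoters (42), protein-coding promoters that overlap a peak (3221) and all protein-coding promoters (21263). The family bars are at 52.4% for NF-Y and 81.0% for the GC box, above both other sets. They are at 0 for the UPRE-type motif, CRE and YY1, which are at most 5.93% in the other sets.

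Other splicing genes were examined for context, in 6 lists of 86 genes chosen with earlier results of these data known. Of these genes 52 had a peak (60.5%, 95% interval 49.3 to 70.8). The share of all protein-coding genes, 15.9%, is the background for each list below, and the interval covers counting error only. SR-related proteins and SR cofactors had the highest share, 15 of 19 (78.9%), led by Rbm39, a relative of U2AF (1763 bp), Thrap3 (1408 bp) and Luc7l2, which works with the U1 particle (1231 bp). Of hnRNP-type proteins without the Hnrnp symbol 13 of 22 had a peak (59.1%). Pcbp1, a poly(C) binder also known as hnRNP E1, had 2104 bp, Ptbp1, the polypyrimidine tract binder hnRNP I, 1333 bp, and Tardbp, a regulator of cryptic exons, 1083 bp. Kinases of SR proteins with their nuclear importer had 6 of 10 (60%), among them Prpf4b (681 bp), Clk3 (540 bp) and Clk1 (499 bp).

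The core machinery was counted in the other 3 lists. Of the Sm and snRNP core genes 7 of 12 had a peak (58.3%), with Snrpa of the U1 particle at 1048 bp, Snrnp70 at 732 bp and Snrpd1 at 716 bp. Of SF3A and SF3B genes, which recognise the branch point, 5 of 10 did (50%), with Sf3b1 at 598 bp, Sf3b4 at 564 bp and Sf3b2 at 480 bp. Of genes of the U5 and U4/U6 particles and of activation, 6 of 13 did (46.2%), with Eftud2 at 472 bp, the helicase gene Snrnp200 at 388 bp and Prpf6 at 264 bp. Median widths of the widest peak per gene were 576 bp for the SR-related list, 499 bp for the hnRNP-type list and 480 bp for SF3A and SF3B. They were 461 bp for the Sm list, 454 bp for the kinase list and 257 bp for the last list. All 6 lists together had 489.5 bp, beside 770.5 bp for the hnRNP and SR genes. The intervals on the shares of these lists overlap those of the family, and no difference between lists was tested.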

How the data were processed

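The values are 1 annotated peak list of mouse NK cells. Per the file header, it is HOMER's peak annotation of 1 interval file, called common, on mm10. Tools listed in the submitters' processing notes are MACS2 2.2.7.1, Bowtie2 2.4.5, HOMER (4.11 and 4.11.1), FastQC 0.11.9 and Trim Galore 0.6.7. How calls were combined, their threshold and any pooling are not given in the sources used here. A width may therefore be that of an overlap of calls. The deposited score is 0 in every row. Positions, distances to the TSS and annotation classes are those the authors deposited.

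Genes, starts and promoters came from RefSeq (GRCm38.p6), which gave 21263 promoters of 17492 genes. Genes were matched by Entrez number or, in the family, by symbol. All 32 family genes and all 86 genes of the other lists were matched, and 30 family genes had a promoter sequence (not Hnrnpul2 and Hnrnpll). The named genes are all family genes and the 3 widest of each other list. The members and lists were chosen with earlier results of these data known. Intervals of shares are exact Clopper-Pearson 95% intervals, and those of medians are 95% intervals from order statistics. Counting was tested on simulated peaks. Motif search was tested only for finding motifs planted in simulated sequences of A and T, and extra matches were not checked. Tables were read with pandas 2.3.3 and NumPy 2.4.6 under Python 3.11.15, intervals came from SciPy 1.17.1, and plots from matplotlib 3.10.9.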

Additional observations from a re-analysis of the deposited data

How the results depend on the processing

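The alternatives varied the window (1000 bp or any distance), the peaks used (at least 200 bp, or the widest 50%), the Gm6793 peak and the assignment of genes, and, for motifs, the promoter length. Of 64 recomputed values 58 stayed within the 95% interval of the main value or, for counts, within 1.5 times of it. Some of the 58 could not change. The CpG background does not alter the family share of 75%, and the pseudogene peaks do not alter the 52 of the other lists. A fall from 24 to 16 family genes, described below, is at the 1.5 limit and is among the 58. Counts, shares and widths cannot change sign, and the median distance to the TSS stayed downstream. With peaks counted only where they cover a RefSeq start, an alternative added after the data were seen, 16 family genes had a peak (50%) in place of 24, and 30 genes of the other lists had one in place of 52; the background was then 10.2%. This counting leaves out genes without a promoter sequence and peaks beside a start. With 150 in place of 250 bases before the start, CCACG was in 28.6% of family promoters, against 29.3% of all. The ER stress element was in 0%, since the Hnrnpa3 element lies beyond that window. ACGTGG stayed at 7.14% of the family, against 6.62% of all in place of 9.06%. The order of family and all promoters thus turned for CCACG and ACGTGG. Searching ACGT alone in place of ACGTGG or TGACGTGG gave 50%. The family share ranged from 62.5 to 78.1% in the remaining settings, with a background of 9.03 to 17.7% where all protein-coding genes were counted. Against genes with at least 32 CpG only, also added after the data were seen, the background was 29.0%. No paired analysis was possible because the list has no value for any library, and for the same reason no replicate could be left out and depth could not be weighed.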

Other observations

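The CTCGCGAG matches of the family lie in 4 windows of 3 genes. Those of Srsf4 are 1 site in 2 overlapping windows, and the others are at Srsf10 and at the Hnrnph1 start that its peak does not cover. None of the 26 family promoters that overlap a peak holds it, and at 109 of 3221 (3.38%) for protein-coding promoters that do, a count of 0 is near that share. With 150 bases before the start, 2 family windows hold it (4.76%).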
